A study of Homo sapiens with 13 samples.

Results

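Aminoacyl-tRNA synthetases are the enzymes that join amino acids to their transfer RNAs, and their mRNA levels were followed in AC16 cells through mitochondrial preconditioning and FCCP. Human genes were taken by symbol: 19 that encode cytosolic enzymes (symbols ending in 1, with FARSA and FARSB) and 16 that encode mitochondrial enzymes (symbols ending in 2). Each of the 35 symbols matched 1 of the 63241 gene IDs in the count files, and all 35 were among the 16756 genes with enough reads to be tested. AC16 is a human line derived from ventricular cardiomyocytes fused to transformed fibroblasts, and FCCP is a protonophore that collapses the potential across the inner mitochondrial membrane. The groups were preconditioning+FCCP (3 libraries), FCCP (3 libraries), preconditioning (4 libraries) and control (3 libraries). Preconditioning was optogenetic, by light acting on a mitochondrial construct called mOpto. All libraries carry the genotype wildtype and the cell type myocyte in the labels, which give no dose or time and leave unsaid whether control and FCCP cells carried mOpto or were lit.

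Cells keep separate pools of charged tRNA for the cytosol and for the mitochondrial matrix, and most amino acids have a synthetase gene for each. The mitochondrial enzymes are encoded in the nucleus, imported, and serve the translation of the respiratory chain subunits that the mitochondrial genome encodes. GARS1 and KARS1 each supply both compartments. QARS1, the cytosolic glutamine enzyme, has no mitochondrial partner, because mitochondria charge the glutamine tRNA with glutamate through EARS2 and then convert it with an amidotransferase made of QRSL1, GATB and GATC. Uncharged tRNA activates the kinase GCN2 (gene EIF2AK4), which raises translation of the transcription factor ATF4. Several cytosolic synthetase genes are known targets of ATF4, which binds C/EBP-ATF response elements with partners such as CHOP (gene DDIT3).

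Libraries held 14970803 to 20636229 gene counts. The labels name no cultures behind the replicates, so the p-values speak of the spread among libraries alone, which may be technical. Some libraries stood apart from their groups, and results that rest on them are given with and without them. In FCCP 1 the cytosolic synthetases summed to 4280.4 CPM (a gene's counts scaled to a common library size), against 2609 and 2665 CPM in FCCP 2 and 3. In control 3 they summed to 4547 CPM, against 2929 and 3296 CPM in control 1 and 2. In preconditioning+FCCP 3 that sum lay near those of its group. The mitochondrial genome held 6.42% of its gene counts, against 1.33% and 2.32% in preconditioning+FCCP 1 and 2. That share was 6.49% in FCCP 1, against 1.94% and 1.55% in FCCP 2 and 3. It was 3.00% in control 3, against 9.58% and 8.95% in control 1 and 2. Reads that aligned to several places also parted the libraries, at a gap in their share between 5.22% and 7.13%: control 1 and 2, FCCP 1 to 3 and preconditioning+FCCP 3 lay above the gap (the higher-share set), the other libraries below it (the lower-share set). The labelled cell type was not borne out by cardiomyocyte markers, of which 4 of 12 had enough reads to be tested, TNNT2 had none in any library, and the 12 together came to 3.61 to 12.5 CPM. Fibroblast markers were tested in 10 of 10 cases and together came to 1187 to 1484 CPM in preconditioning+FCCP, 4503 to 7724 CPM in FCCP, 5926 to 6726 CPM in preconditioning and 3786 to 7643 CPM in control. None of the 10 was at 0 in any group. Of smooth muscle markers 5 of 5, of endothelial markers 4 of 5 and of immune markers 1 of 5 had enough reads. In bulk RNA, fewer cells of a kind and less RNA per cell cannot be told apart, and the part of these shifts in the results below was not tested.

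Per kilobase of merged exon, the cytosolic genes were mostly the more abundant. In control, AARS1 (alanine) was highest at 90.5 CPM per kb, followed by KARS1 (lysine) at 63.9 and GARS1 (glycine) at 63.7 CPM per kb. The highest mitochondrial genes were IARS2 (isoleucine) at 22.9 and RARS2 (arginine) at 22.0 CPM per kb, above the cytosolic LARS1 (leucine) at 19.1 and WARS1 (tryptophan) at 18.8. The lowest cytosolic genes were CARS1 (cysteine) at 13.2 and HARS1 (histidine) at 10.0, both below the mitochondrial YARS2 (tyrosine) at 13.6. SARS2 (serine) at 0.493 and VARS2 (valine) at 0.0492 CPM per kb were lowest. SARS2 had 1 to 35 reads and VARS2 0 to 26 reads per library, so their changes rest on few reads. The exons of SARS2 overlap those of MRPS12 and AC011455.2, and the exons of VARS2 overlap those of GTF2H4. Reads over several genes were dropped, so the counts of both may be too low.

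**Figure D1:**
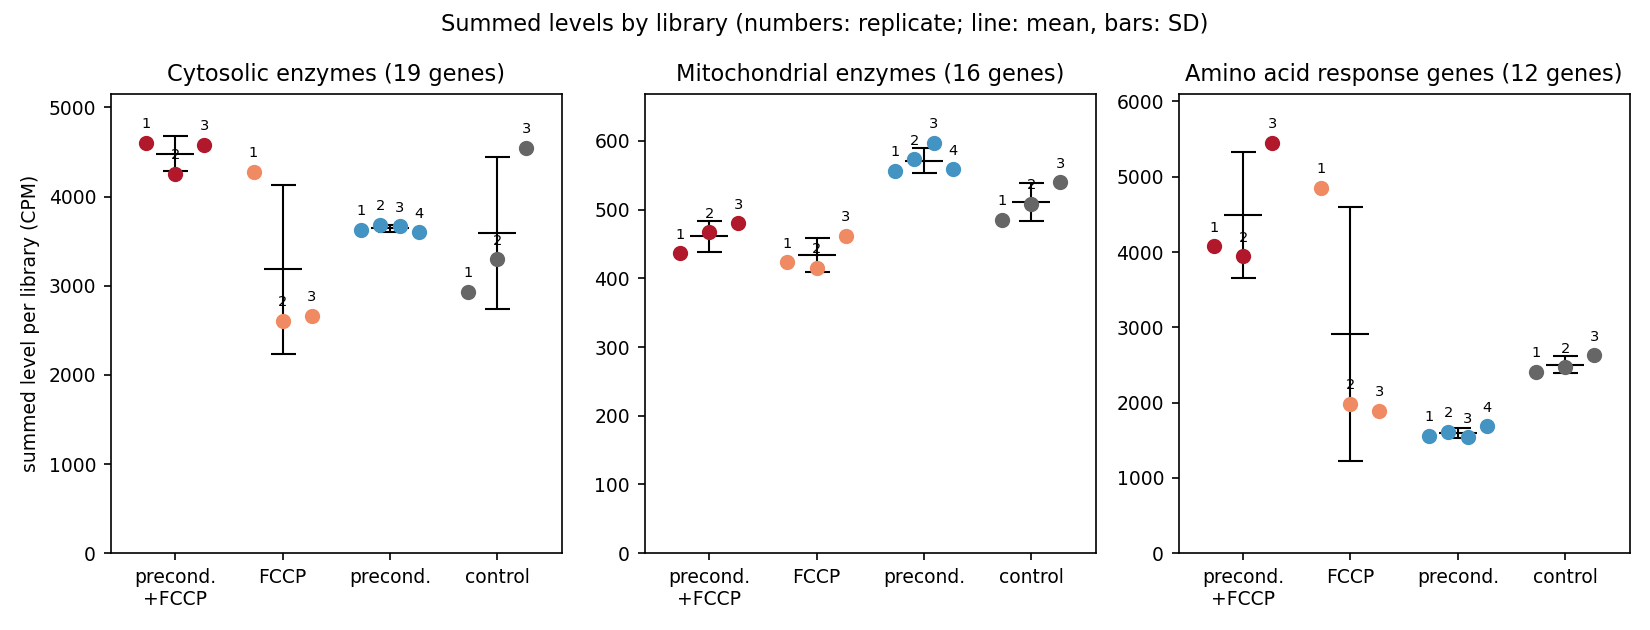
Summed level in CPM of the 19 cytosolic synthetases, the 16 mitochondrial synthetases and 12 amino acid response genes in each library (points, with replicate numbers), with group means (lines) and SD (bars). For the cytosolic enzymes, the 3 preconditioning+FCCP libraries sit at 4258 to 4604 CPM, and FCCP 1 and control 3 lie far above the other libraries of their groups. The mitochondrial enzymes are highest in preconditioning.

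Summed over the 19 cytosolic enzymes, levels were 4604, 4258 and 4584 CPM in preconditioning+FCCP, 4280.4, 2609 and 2665 CPM in FCCP, 3627, 3684, 3664 and 3598 CPM in preconditioning, and 2929, 3296 and 4547 CPM in control. Summed over the 16 mitochondrial enzymes, they were 436, 467 and 480.4 CPM in preconditioning+FCCP, 424, 416 and 462 CPM in FCCP, 557, 573, 597 and 559 CPM in preconditioning, and 485, 509 and 539.9 CPM in control. The ratio of the sums was 10.6, 9.11 and 9.54 in preconditioning+FCCP, against 6.51, 6.43, 6.13 and 6.44 in preconditioning. It was 10.1, 6.28 and 5.77 in FCCP and 6.04, 6.48 and 8.42 in control. The preconditioning+FCCP libraries thus carried a higher ratio than every preconditioning and control library, while FCCP 1 lay within their range.

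The promoters of the members were searched for the core of the C/EBP-ATF response element, TGATGNAA on either strand (N is any base), in RefSeq windows of 250 bases before to 50 bases after a gene start (GRCh38.p14). A window was at hand for 30 of the 35 genes (LARS1, VARS1, YARS1, VARS2 and AARS2 had none in the table). The core lay in 7 of 16 cytosolic genes (AARS1, CARS1, GARS1, IARS1, MARS1, NARS1, TARS1) and in 1 of 14 mitochondrial genes (YARS2), against 4.46% of the 27305 genes with a window. A match is a description of the letters and not a known binding site. A gene with several windows was taken to hold the core if any window did. CARS1 has a second window (chr11:3040935-3041234, minus strand), which held no match. The windows below show each match in capitals with 20 bases on either side, 5′ to 3′ in the direction of the gene. All 8 matches are given, whether or not their gene was called in a comparison, to show where they lie. The search itself fixed every base of the core but N, so the likeness of the cores is no result. Of the 8 matches, the first base of the core lies at -2 in CARS1, -4 in MARS1, 2 in TARS1, -13 in IARS1, 14 in NARS1, -33 in GARS1, -187 in AARS1 and -197 in YARS2, with the annotated start base counted as 0.
CARS1, chr11:3057398-3057445, minus strand: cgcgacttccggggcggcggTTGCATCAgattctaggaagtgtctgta
MARS1, chr12:57488044-57488091, plus strand: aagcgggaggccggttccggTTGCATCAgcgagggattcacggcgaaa
NARS1, chr18:57621795-57621842, minus strand: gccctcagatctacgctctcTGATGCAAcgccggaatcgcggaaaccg
IARS1, chr9:92293683-92293730, minus strand: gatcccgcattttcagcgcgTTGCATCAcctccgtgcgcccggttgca
TARS1, chr5:33440947-33440994, plus strand: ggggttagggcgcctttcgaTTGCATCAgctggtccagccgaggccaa
AARS1, chr16:70289666-70289713, minus strand: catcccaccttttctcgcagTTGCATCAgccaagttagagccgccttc
GARS1, chr7:30594825-30594872, plus strand: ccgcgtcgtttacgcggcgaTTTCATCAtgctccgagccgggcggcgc
YARS2, chr12:32756067-32756114, minus strand: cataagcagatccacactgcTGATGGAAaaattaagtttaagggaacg

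For contrast, the whole window of IARS2, the mitochondrial isoleucine gene, held no match (chr1:220093882-220094181, plus strand).
IARS2: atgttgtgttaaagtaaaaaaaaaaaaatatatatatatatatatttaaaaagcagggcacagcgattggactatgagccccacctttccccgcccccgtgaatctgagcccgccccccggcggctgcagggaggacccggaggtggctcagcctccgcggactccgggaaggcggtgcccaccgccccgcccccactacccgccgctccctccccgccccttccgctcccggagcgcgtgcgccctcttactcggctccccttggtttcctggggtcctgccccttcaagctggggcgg

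The first comparison set preconditioning+FCCP against preconditioning and so asked what FCCP did in preconditioned cells. Of 19 cytosolic genes 5 were called higher and 2 lower at an adjusted p under 0.05, and of 16 mitochondrial genes none was called higher and 6 lower. Among all genes tested, 20.2% were called higher and 19.2% lower (39.4% in either direction). The cytosolic share called higher, 26.3%, was thus near that of all genes, while the mitochondrial share called lower was 37.5%. The absence of a mitochondrial rise held at an unadjusted edgeR p under 0.05 and with DESeq2 and limma-voom (0 genes each). All preconditioning+FCCP libraries lay above all preconditioning libraries in 9 cytosolic genes and 1 mitochondrial gene (TARS2), against 26.6% of all genes, and below them in 3 cytosolic and 7 mitochondrial genes, against 26.2%. The median log2 change was 0.21 for the cytosolic and −0.05 for the mitochondrial genes, beside 0.02 over all genes.

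CARS1, which charges cysteine, changed most among the cytosolic genes. It had 205, 208 and 247 CPM in preconditioning+FCCP, against 74.2, 78.6, 67.0 and 84.2 CPM in preconditioning. Every combined library lay above every preconditioned one, and the log2 change was 1.53 ± 0.22 (SE, adjusted p = 0.00011). MARS1, the methionine enzyme, had 402, 355 and 336 CPM in preconditioning+FCCP, against 207, 226, 202 and 216 CPM in preconditioning. Its groups did not overlap either (0.77 ± 0.25, adjusted p = 0.0242). The exons of MARS1 overlap those of DDIT3 on the opposite strand, and no source used here gives the strand setting. Reads over both genes may thus not have been told apart. Reads over several genes were dropped, so some reads of MARS1 may have been lost. DDIT3 itself changed by 3.52 ± 0.43 in this comparison. The exons of CARS1 overlap an antisense gene, CARS-AS1.

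GARS1, the glycine enzyme of both compartments, had 403, 364 and 437 CPM in preconditioning+FCCP, against 235, 234, 208 and 234 CPM in preconditioning (0.82 ± 0.29, adjusted p = 0.0374). The tyrosine enzyme YARS1 (0.75 ± 0.25, adjusted p = 0.0251) and the asparagine enzyme NARS1 (0.66 ± 0.22, adjusted p = 0.0264) were also called higher. All 3 were higher in each preconditioning+FCCP library than in any preconditioning library. VARS1, the cytosolic valine enzyme, went the other way, with 118, 97.4 and 145 CPM in preconditioning+FCCP, against 229.5, 212, 251 and 197 CPM in preconditioning (−0.89 ± 0.21, adjusted p = 0.00418). The glutamine enzyme QARS1 had 150.3, 122 and 144 CPM in preconditioning+FCCP, against 189, 198, 190.0 and 192 CPM in preconditioning (−0.47 ± 0.14, adjusted p = 0.0152). Both groups were fully separated for these 2 genes.

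The remaining 12 cytosolic genes were not called. AARS1 (0.42 ± 0.19), EPRS1 (0.24 ± 0.21), HARS1 (0.34 ± 0.18) and TARS1 (0.51 ± 0.27) were above preconditioning in every preconditioning+FCCP library. The log2 values of the others ranged from −0.21 (RARS1) to 0.21 (KARS1), with IARS1 at 0.03 ± 0.25.

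Among the mitochondrial genes, EARS2 fell most of those with ample reads. EARS2 charges glutamate and also starts the mitochondrial route to glutaminyl-tRNA. It had 15.6, 12.4 and 13.8 CPM in preconditioning+FCCP, against 36.1, 40.2, 43.0 and 39.7 CPM in preconditioning (−1.51 ± 0.20, adjusted p = 6.36e-05). IARS2 had 96.1, 76.1 and 74.2 CPM in preconditioning+FCCP, against 159.8, 158, 158 and 149.8 CPM in preconditioning (−0.93 ± 0.15, adjusted p = 0.000263). Both genes were lower in every combined library than in any preconditioned library. The tryptophan enzyme WARS2 had 9.90, 7.35 and 10.8 CPM in preconditioning+FCCP, against 13.9, 15.6, 15.6 and 17.9 CPM in preconditioning (−0.76 ± 0.22, adjusted p = 0.0129). SARS2, with 1, 14 and 5 reads in preconditioning+FCCP against 31, 31, 26 and 20 reads in preconditioning, had a log2 change of −2.24 ± 0.57 (adjusted p = 0.00577). Its exons overlap those of MRPS12 and of AC011455.2, so reads of this gene are uncertain. The phenylalanine enzyme FARS2 (−0.72 ± 0.21, adjusted p = 0.0132) and the leucine enzyme LARS2 (−0.54 ± 0.20, adjusted p = 0.041) were the other 2 that fell. The 10 mitochondrial genes that were not called had log2 values from −0.40 (AARS2) to 0.42 (YARS2), and 1.02 ± 0.87 for the sparse VARS2.

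The calls of CARS1, VARS1, EARS2, IARS2 and SARS2 held in each of 24 other fits. Within the lower-share set, which holds preconditioning+FCCP 1 and 2 and all preconditioning libraries, 18 members were called, 8 cytosolic and 1 mitochondrial (VARS2) higher and 3 cytosolic and 6 mitochondrial lower, with CARS1 at 1.44, EARS2 at −1.51 and IARS2 at −0.86. The count was 6 without preconditioning+FCCP 2, 7 without preconditioning+FCCP 1 and 8 without preconditioning 1. Shares of all genes called in these other fits are not given. Of the 10 fibroblast markers 9 were called lower in the same comparison.

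**Figure D2:**
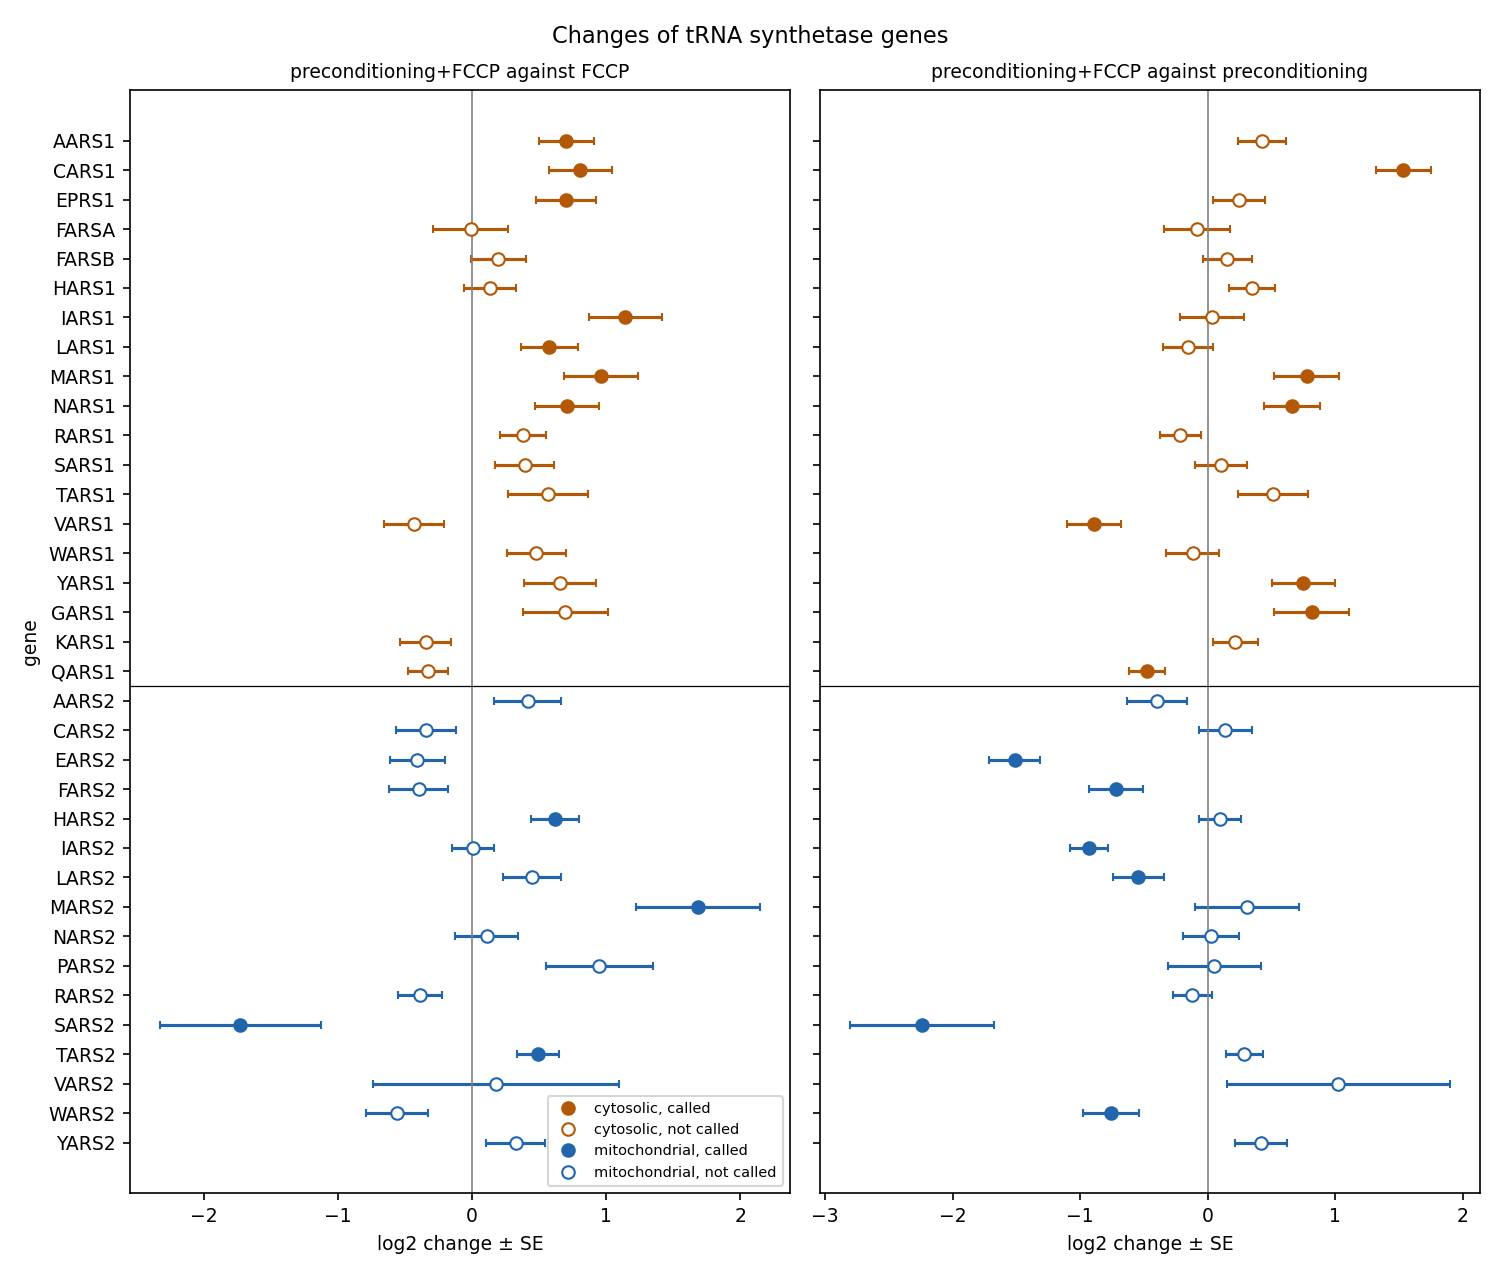
Log2 change ± SE (edgeR, relative to the group named second) of each synthetase gene in preconditioning+FCCP against FCCP (left) and against preconditioning (right); filled points were called at an adjusted p under 0.05, cytosolic genes are above the line and mitochondrial genes below it. On the left 7 cytosolic genes are called higher and none lower; on the right all 6 called mitochondrial genes are lower.

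The second comparison set preconditioning+FCCP against FCCP and so asked what preconditioning changed under FCCP. Of the 19 cytosolic genes 7 were called higher (36.8%) and none lower, against 17.9% of all genes called higher and 17.7% lower (35.7% in either direction). Of the mitochondrial genes 3 of 16 were called higher (18.8%) and 1 lower (6.25%), a share higher that was near that of all genes. The median log2 change was 0.57 for the cytosolic genes, 0.14 for the mitochondrial genes and 0.01 over all genes. All 3 preconditioning+FCCP libraries lay above all 3 FCCP libraries in 11 cytosolic and 4 mitochondrial genes, against 21.9% of all genes, and below them in 1 cytosolic gene (QARS1) and 4 mitochondrial genes, against 21.3%. At an unadjusted edgeR p under 0.05, 11 cytosolic genes were higher and 1 lower, and DESeq2 and limma-voom also called none lower. Shares of all genes at an unadjusted p, or called by DESeq2 and limma-voom, are not given here or elsewhere. Without control 3, FCCP 1 and preconditioning+FCCP 3 together, 12 cytosolic genes were called higher and 2 lower. The lower ones were VARS1 (−0.46, adjusted p = 0.0188) and KARS1 (−0.39, adjusted p = 0.0468). Of the mitochondrial genes, HARS2, LARS2, MARS2, PARS2 and TARS2 were called higher in that fit. CARS2 (−0.62), EARS2 (−0.55), RARS2 (−0.43) and WARS2 (−0.74) were called lower. The share of all genes called in that fit is not given.

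IARS1, which charges isoleucine, showed the largest cytosolic difference, at 378, 294 and 296 CPM in preconditioning+FCCP and 215, 119 and 104 CPM in FCCP (1.14 ± 0.27, adjusted p = 0.00498). MARS1 had 402, 355 and 336 CPM in preconditioning+FCCP, against 305, 131 and 124 CPM in FCCP (0.96 ± 0.28, adjusted p = 0.0138). DDIT3, on the opposite strand at this locus, changed by 1.27 ± 0.44. CARS1 had 205, 208 and 247 CPM in preconditioning+FCCP, against 192, 90.3 and 95.5 CPM in FCCP (0.81 ± 0.23, adjusted p = 0.0149). AARS1 had 537, 555 and 541 CPM in preconditioning+FCCP, against 436, 275 and 291 CPM in FCCP (0.70 ± 0.20, adjusted p = 0.015). In all 4 genes the groups did not overlap, and FCCP 1 was the nearest FCCP library to the combined group. The bifunctional glutamate and proline enzyme EPRS1 (0.70 ± 0.22, adjusted p = 0.0226), NARS1 (0.71 ± 0.24, adjusted p = 0.0304) and LARS1 (0.58 ± 0.21, adjusted p = 0.0432) were also called higher.

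YARS1 (0.66 ± 0.27, adjusted p = 0.0656) and GARS1 (0.70 ± 0.32, adjusted p = 0.0971) were of like size and were not called, and GARS1 was higher in FCCP 1 (430.2 CPM) than in preconditioning+FCCP 1 and 2 (403 and 364 CPM). KARS1 (−0.34 ± 0.19), QARS1 (−0.33 ± 0.15), VARS1 (−0.43 ± 0.22) and FARSA (−0.01 ± 0.28) were the cytosolic genes with values below 0, none of them called with all libraries. The other 6 cytosolic genes had log2 values from 0.14 (HARS1) to 0.57 (TARS1).

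Of the mitochondrial genes, the methionine enzyme MARS2 had 15.9, 15.7 and 13.3 CPM in preconditioning+FCCP, against 7.01, 1.91 and 5.04 CPM in FCCP (1.69 ± 0.46, adjusted p = 0.0109). The histidine enzyme HARS2 had 27.7, 31.7 and 36.4 CPM in preconditioning+FCCP, against 22.3, 21.3 and 18.8 CPM in FCCP (0.62 ± 0.18, adjusted p = 0.014). Exons of HARS2 and HARS1 overlap on opposite strands, and their RefSeq promoter windows share 184 bases. The threonine enzyme TARS2 had 63.9, 82.4 and 72.2 CPM in preconditioning+FCCP, against 52.3, 45.5 and 57.6 CPM in FCCP (0.49 ± 0.16, adjusted p = 0.023). All 3 were higher in every combined library. SARS2 was called lower, with 1, 14 and 5 reads in preconditioning+FCCP and 22, 12 and 13 reads in FCCP (−1.72 ± 0.60, adjusted p = 0.0347). EARS2 (−0.41 ± 0.21) and IARS2 (0.01 ± 0.16), which fell against preconditioning, were not called against FCCP. Among the other uncalled mitochondrial genes, LARS2 was higher in every combined library than in any FCCP library. FARS2, RARS2 and WARS2 were lower in every combined library.

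The size of this difference depended on which FCCP libraries were compared. For the fits that leave out a library, the share of all genes called is not given. A change in count may therefore not be particular to the synthetases. Without FCCP 1, 17 members were called, 11 cytosolic and 4 mitochondrial higher and 2 mitochondrial lower, and IARS1 reached 1.53, whereas 3 members were called without FCCP 2, 3 without FCCP 3, 6 without preconditioning+FCCP 1 and 6 without preconditioning+FCCP 2. Within the higher-share set, which leaves preconditioning+FCCP 3 as the only combined library, assumed to vary like the other groups, no member and only 3 of all genes were called, with IARS1 at 1.01, CARS1 at 0.96, MARS1 at 0.83 and a cytosolic median of 0.54. With a term for the library set, only CARS1 (0.88) and IARS1 (0.80) of the cytosolic genes were called. AARS1 (0.55), EPRS1 (0.55), LARS1 (0.33), MARS1 (0.75) and NARS1 (0.64) lost their calls. All FCCP libraries are in the higher-share set, and preconditioning+FCCP 1 and 2 are in the lower-share set. The set and the treatment thus largely coincide in this comparison. Of 10 fibroblast markers 8 were called lower and 1 higher in preconditioning+FCCP against FCCP.

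**Figure D3:**
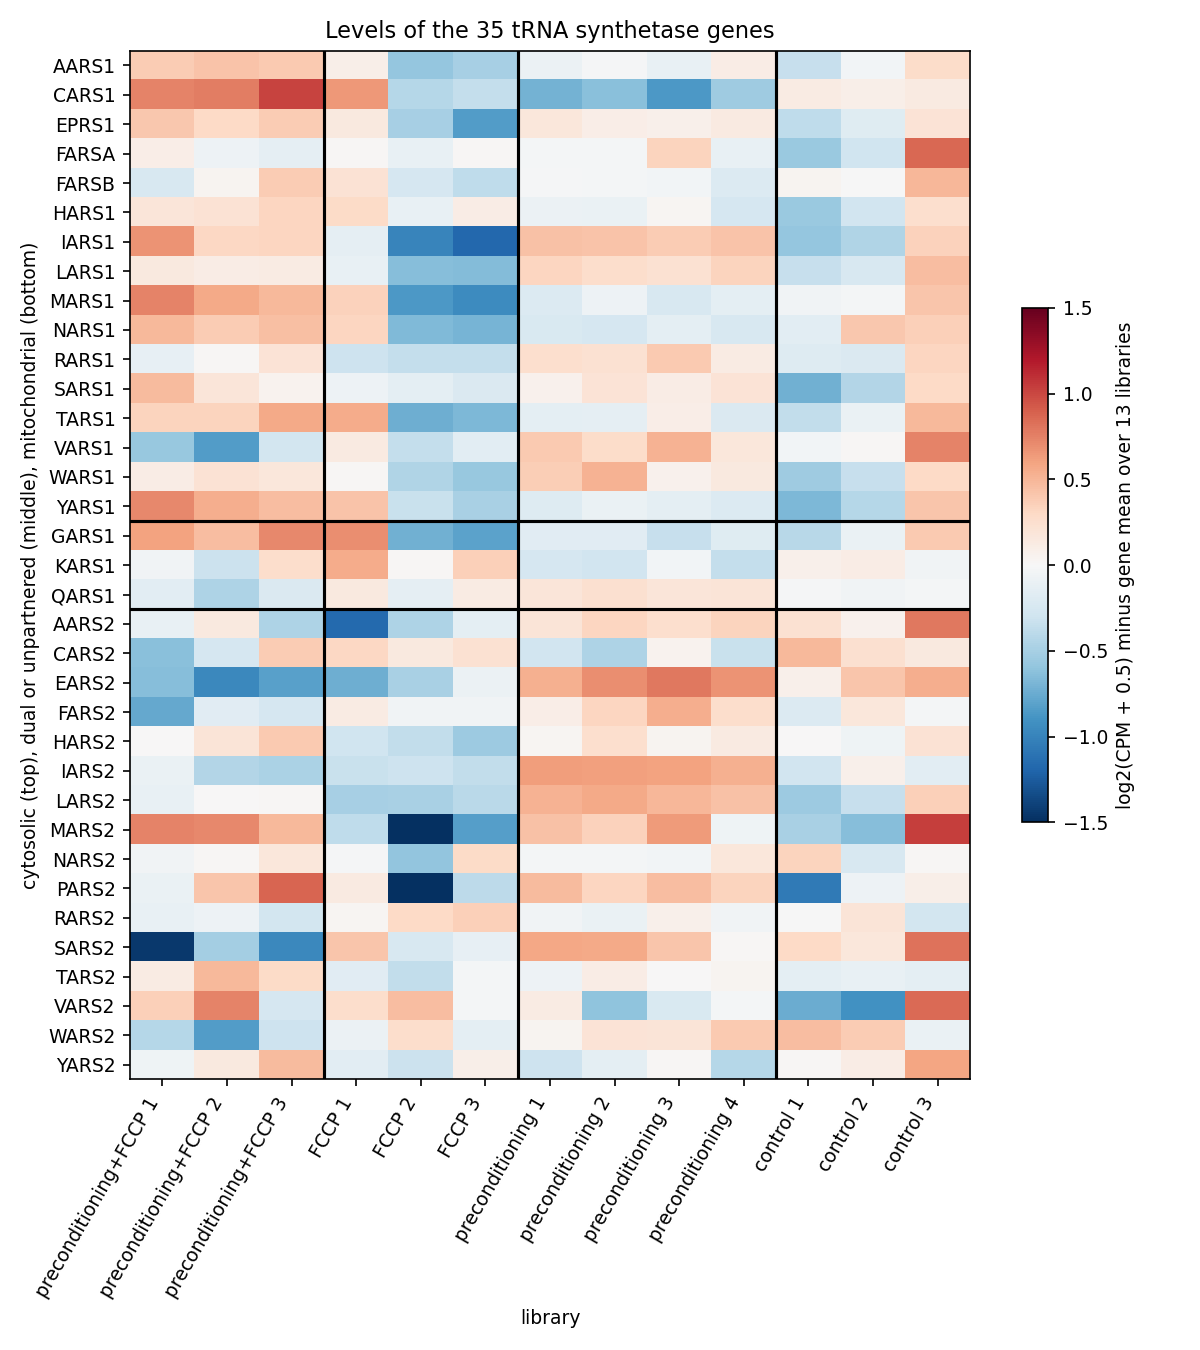
Level of each synthetase gene (rows) in each library (columns), as log2(CPM + 0.5) minus the mean of the gene over the 13 libraries; colours stop at ±1.5. CARS1, MARS1, YARS1 and GARS1 are red in the 3 preconditioning+FCCP libraries and in FCCP 1, MARS1, YARS1 and GARS1 also in control 3, and IARS2 and LARS2 are highest in the 4 preconditioning libraries.

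Preconditioning against control asked what preconditioning did on its own. It moved few synthetase genes: of 35 members, 2 mitochondrial genes were called higher and 1 cytosolic gene lower, against 10.5% of all genes called higher and 13.0% lower (23.6% in either direction). The medians were −0.01 for the cytosolic and 0.02 for the mitochondrial genes, beside −0.02 over all genes. Every preconditioning library lay above every control library in 6 members, against 19.4% of all genes, and below in 5, against 17.3%. CARS1 had 74.2, 78.6, 67.0 and 84.2 CPM in preconditioning, against 133, 129.6 and 134 CPM in control (−0.80 ± 0.22, adjusted p = 0.0169). IARS2 had 159.8, 158, 158 and 149.8 CPM in preconditioning, against 84.2, 109 and 92.5 CPM in control (0.71 ± 0.15, adjusted p = 0.00467). LARS2 had 35.4, 36.5, 34.6 and 33.3 CPM in preconditioning, against 16.6, 19.2 and 31.4 CPM in control (0.64 ± 0.20, adjusted p = 0.0312). The groups did not overlap in these 3 genes, although control 3 lay close to preconditioning in LARS2.

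The cytosolic genes as a group had no settled direction here, because it turned with the control library used. Without control 3 the cytosolic median was 0.32 and 11 members were called, 6 cytosolic higher (FARSA, IARS1, LARS1, RARS1, SARS1 and WARS1) and CARS1 lower among the cytosolic genes. Within the lower-share set control 3, which itself stood apart, is the only control. The spread in that fit comes from the preconditioning and preconditioning+FCCP libraries, and the lone control is assumed to vary like them, so its 11 calls (8 cytosolic genes lower, none higher) speak of that library. The cytosolic median there was −0.34. CARS1 was −0.80 and IARS2 0.69 without control 3, both called, and against control 3 alone they were −0.81 and 0.76, with LARS2 at 0.16. Only IARS2 was called without control 1 and without control 2. How many of all genes were called in these fits is not given.

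FCCP against control asked what FCCP did without preconditioning. A single member was called, the mitochondrial glutamate enzyme EARS2, which was lower, against 1.60% of all genes called higher and 1.92% lower (3.52% in either direction). EARS2 had 14.7, 17.4 and 23.2 CPM in FCCP, against 26.1, 33.2 and 36.3 CPM in control (−0.79 ± 0.20, adjusted p = 0.0468). Every FCCP library lay below every control library. The call held in 8 of 24 other fits. AARS2, the mitochondrial alanine enzyme, had 17.4, 28.6 and 35.8 CPM in FCCP, against 46.6, 41.5 and 68.8 CPM in control (−0.94 ± 0.25, adjusted p = 0.0529), again without overlap, and was not called.

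None of the 19 cytosolic genes was called by edgeR, DESeq2 or limma-voom, and 1 had an unadjusted edgeR p under 0.05 (LARS1). Their log2 values ran from −0.52 (IARS1) to 0.28 (KARS1), with a median of −0.20. The mitochondrial median was −0.24, and the median over all genes −0.04. In 5 members (RARS1, AARS2, EARS2, HARS2 and IARS2) every FCCP library lay below every control library, against 10.4% of all genes, and in none above, against 8.84%. In the 19 cytosolic genes FCCP 1 and control 3 were the 2 libraries at the top of their groups in sum. Without FCCP 1, 4 members were called, all cytosolic and all lower: MARS1 (−1.06), IARS1 (−0.94), NARS1 (−0.93) and GARS1 (−0.79). EARS2 was not called in that fit, nor within the higher-share set (−0.64), where no member was called. No member was called without control 2, control 3 or FCCP 2, and 2 were called without FCCP 3. Shares of all genes called without a library are not given.

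The interaction subtracts the FCCP effect in cells without preconditioning (FCCP against control) from that in preconditioned cells (preconditioning+FCCP against preconditioning), and so tested whether the 2 effects differed. CARS1 had an interaction of 1.60 ± 0.32 (adjusted p = 0.00399), with an FCCP effect of 1.53 with preconditioning and −0.07 without. MARS1 had 1.26 ± 0.37 (adjusted p = 0.0293), with effects of 0.77 with and −0.48 without preconditioning. NARS1 had 1.15 ± 0.32 (adjusted p = 0.0232), with effects of 0.66 with and −0.49 without preconditioning. IARS2 had −0.70 ± 0.21 (adjusted p = 0.0318), with effects of −0.93 with and −0.22 without preconditioning. These were 3 of 19 cytosolic genes called higher and 1 of 16 mitochondrial genes called lower, against 9.38% of all genes higher and 9.60% lower (19.0% in either direction). The other 31 members did not pass the test of the difference, among them EARS2 (−0.73 ± 0.28, adjusted p = 0.0789), VARS1 (−0.49 ± 0.31, adjusted p = 0.273) and GARS1 (0.91 ± 0.43, adjusted p = 0.147).

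CARS1 was called for the interaction in all 22 other fits, NARS1 in 17, MARS1 in 14 and IARS2 in 10 of them. For the fits that leave out a library, the share of all genes called is not given. Without FCCP 1, 12 members were called, 9 of them cytosolic and higher; CARS1 alone was called when FCCP 2, FCCP 3 or preconditioning+FCCP 2 was left out; and 2 were called without preconditioning 1 and 2 without preconditioning 3.

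**Figure D4:**
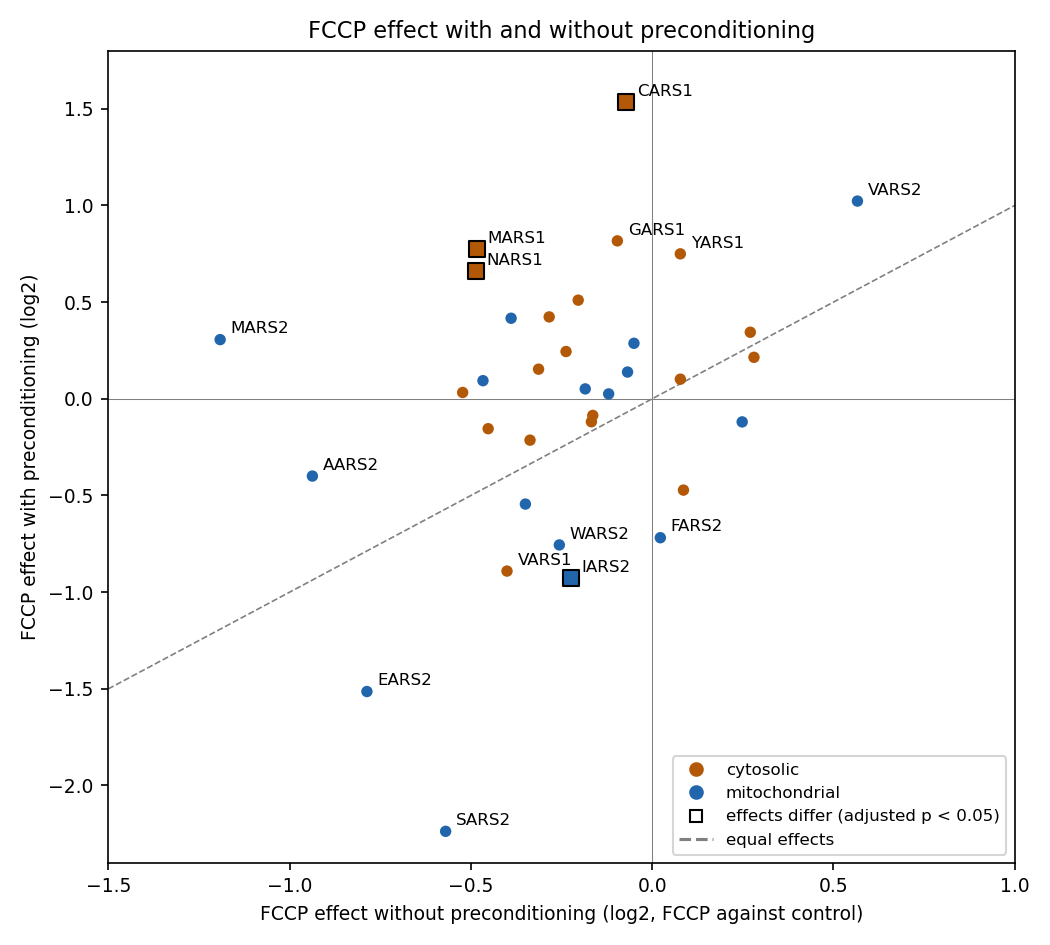
FCCP effect without preconditioning (x axis, log2 change of FCCP against control) and with it (y axis, log2 change of preconditioning+FCCP against preconditioning) for the 35 synthetase genes; squares mark a difference between the effects at an adjusted p under 0.05 and the dashed line marks equal effects. CARS1, MARS1 and NARS1 lie above the line and IARS2 below it.

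Comparing the cytosolic and mitochondrial genes for a shared amino acid within a library sets aside the library's scaling, and these log2 ratios are given as values. The ratio of EPRS1 to EARS2 (glutamate) was 4.28, 4.51 and 4.43 in preconditioning+FCCP, 4.11, 3.23 and 2.48 in FCCP, 2.86, 2.64, 2.52 and 2.70 in preconditioning, and 2.78, 2.63 and 2.89 in control. The combined libraries were the highest, with FCCP 1 next. The ratio of CARS1 to CARS2 (cysteine) was 2.38, 2.03 and 1.64 in preconditioning+FCCP, 1.34, 0.43 and 0.43 in FCCP, 0.58, 0.84, 0.10 and 0.81 in preconditioning, and 0.65, 0.86 and 0.99 in control. The same order held, and CARS2 itself was called in none of the 5 comparisons. The ratio of IARS1 to IARS2 (isoleucine) was 1.97, 1.94 and 1.99 in preconditioning+FCCP, 1.39, 0.52 and 0.38 in FCCP, 1.00, 1.01, 0.96 and 1.08 in preconditioning, and 0.90, 0.66 and 1.69 in control. For isoleucine the preconditioning+FCCP ratio came from a higher IARS1 than in FCCP and from a lower IARS2 than in preconditioning. The ratio of AARS1 to AARS2 (alanine) overlapped, at 3.85, 3.65 and 4.22 in preconditioning+FCCP, 4.61, 3.24 and 3.01 in FCCP, 3.08, 3.02, 3.01 and 3.15 in preconditioning, and 2.79, 3.25 and 2.85 in control. The ratio of HARS1 to HARS2 was, in the mean, lower in preconditioning+FCCP (1.70 ± 0.12, SD, n = 3) than in FCCP (2.16 ± 0.21, n = 3), without overlap. Over all 17 pairs, some of which share a gene, the mean ratio was higher in preconditioning+FCCP than in FCCP in 13, of which 8 did not overlap. It was lower for HARS1 to HARS2, MARS1 to MARS2 (4.56 against 5.20 in FCCP), VARS1 to VARS2 (6.71 against 7.19) and EPRS1 to PARS2 (4.77 against 5.00). Against preconditioning the mean ratio was higher in 15 of 17 pairs, 10 of them without overlap. It was lower without overlap in 1 pair, VARS1 to VARS2. No share for ratios of other genes was computed beside these counts. The ratios of SARS1 to SARS2 and VARS1 to VARS2 rest on a sparse mitochondrial gene.

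**Figure D5:**
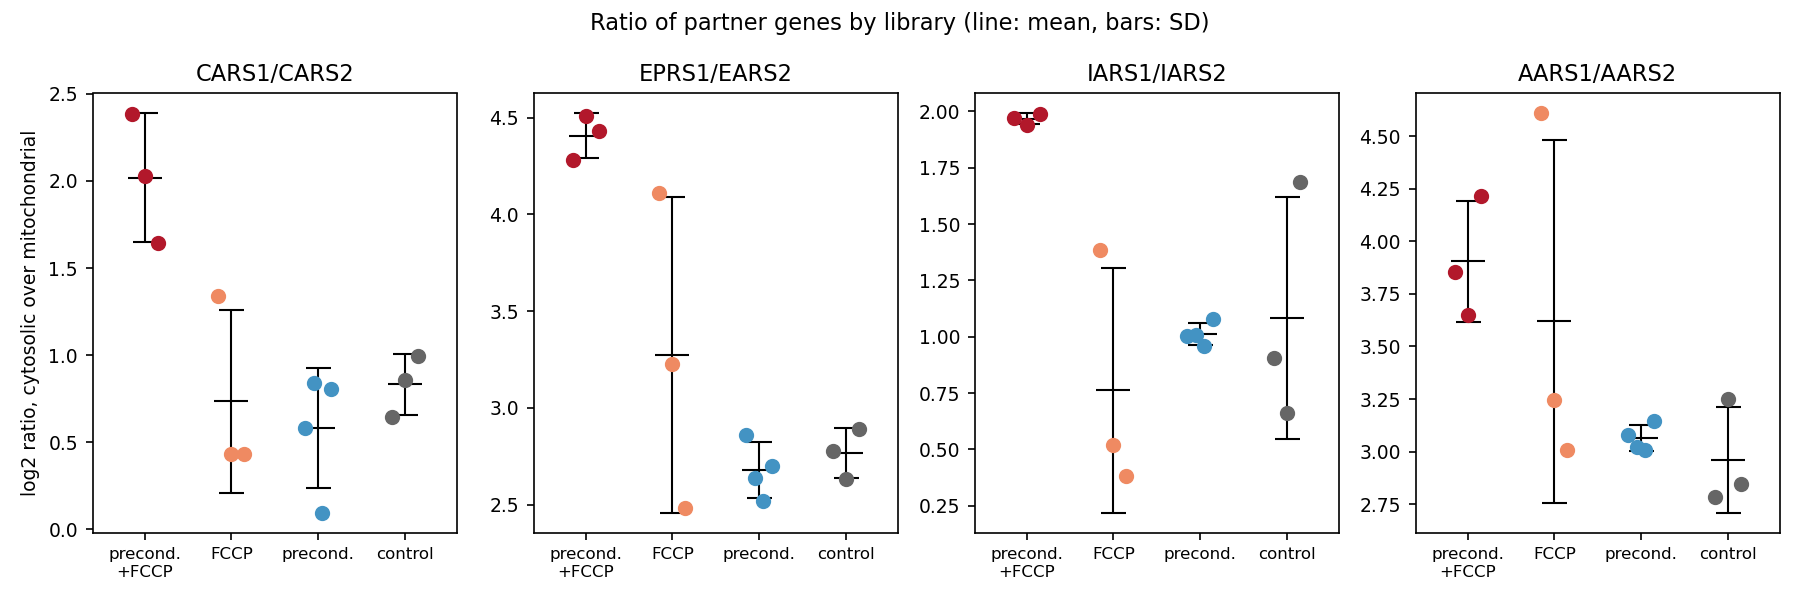
Log2 ratio of the cytosolic to the mitochondrial gene of an amino acid in each library (points), with group means (lines) and SD (bars); each panel has its own axis range, which does not start at 0. In the cysteine, glutamate and isoleucine panels the 3 preconditioning+FCCP libraries lie above all others, and in the alanine panel FCCP 1 is the highest library.

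Among the genes around the synthetases, 12 belong to uncharged-tRNA sensing and the amino acid response. In preconditioning+FCCP against preconditioning 10 of 12 were called higher (83.3%, beside 20.2% of all genes) and 1 lower, with a median of 1.79. ATF4 had 1228, 1270.4 and 2482 CPM in preconditioning+FCCP, against 415, 414, 405 and 439 CPM in preconditioning (1.99 ± 0.33, adjusted p = 0.000325), and PHGDH, the first enzyme of serine synthesis, rose by 1.36 ± 0.22 (adjusted p = 0.000307). The kinase gene EIF2AK4 was the gene called lower (−0.59 ± 0.17, adjusted p = 0.0104). Against FCCP 5 of 12 were called higher (41.7%, beside 17.9% of all genes), led by PSAT1 of serine synthesis (1.20 ± 0.33, adjusted p = 0.011) and TRIB3, a feedback inhibitor of ATF4 (1.87 ± 0.59, adjusted p = 0.0229). In preconditioning against control 4 were called lower (33.3%, beside 13.0% of all genes), among them ATF4 (−1.11 ± 0.32) and DDIT3 (−1.43 ± 0.41), and EIF2AK4 higher (0.68 ± 0.17). None of the 12 was called in FCCP against control, although 2 had an unadjusted edgeR p under 0.05 (GCN1 and PHGDH). Their mean log2(CPM + 0.5) in that comparison was 7.38, 5.37 and 5.51 for the FCCP libraries, against 6.00, 6.11 and 6.78 for the control libraries. The mean was 7.40, 7.39 and 7.60 in preconditioning+FCCP and 5.74 to 6.04 in preconditioning. FCCP 1, the FCCP library with the highest cytosolic synthetases, was thus also the FCCP library with the highest amino acid response.

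The tRNA exporter XPOT, which carries mature tRNA out of the nucleus, had 361, 349 and 371 CPM in preconditioning+FCCP, 256, 97.3 and 102 CPM in FCCP, 175, 178, 174 and 198 CPM in preconditioning, and 228, 239.8 and 231 CPM in control. It was called higher in preconditioning+FCCP against FCCP (1.25 ± 0.28, adjusted p = 0.0035) and against preconditioning (0.99 ± 0.26, adjusted p = 0.00646), and its interaction was 1.61 ± 0.38 (adjusted p = 0.00897). Of the 10 tRNA maturation and export genes 3 were called higher and 1 lower against FCCP, where 17.9% of all genes were higher and 17.7% lower, so that 3 of 10 is near the share of all genes. Against preconditioning 5 were called higher and 2 lower, where 20.2% of all genes were higher and 19.2% lower. Both MTO1 (1.02 ± 0.22 and 0.65 ± 0.21), which modifies the wobble base of mitochondrial tRNAs, and XPOT were called in both comparisons. TRMT10C, a subunit of mitochondrial RNase P, was the member of this list called in FCCP against control, with 14.9, 10.5 and 16.2 CPM in FCCP and 24.4, 32.8 and 32.0 CPM in control (−1.10 ± 0.22, adjusted p = 0.0188).

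GATB, a subunit of the amidotransferase that follows EARS2, had 10.0, 11.2 and 15.03 CPM in preconditioning+FCCP, 28.9, 33.0 and 26.9 CPM in FCCP, 20.5, 21.5, 22.0 and 23.2 CPM in preconditioning, and 20.5, 25.3 and 21.2 CPM in control. It was called lower against FCCP (−1.29 ± 0.20, adjusted p = 0.000414) and against preconditioning (−0.85 ± 0.19, adjusted p = 0.00232). QRSL1, the catalytic subunit, was called higher against FCCP (0.66 ± 0.22, adjusted p = 0.0292), and GATC and MTFMT, which formylates the initiator tRNA, were called in none of the comparisons. Of the scaffolds of the cytosolic multisynthetase complex, AIMP1 was called higher (0.62 ± 0.20) and AIMP2 lower (−0.76 ± 0.29) in preconditioning+FCCP against preconditioning, and EEF1E1 lower in preconditioning against control (−1.05 ± 0.32, adjusted p = 0.029). SEPSECS, which completes the charging of selenocysteine tRNA, was called higher against FCCP (1.16 ± 0.26, adjusted p = 0.0037) and against preconditioning (0.72 ± 0.24, adjusted p = 0.0258). Of the elongation factors, which bring charged tRNA to the ribosome or move it along, 4 of 5 were tested, and EEF1A2 was called lower against FCCP (−1.82 ± 0.24, adjusted p = 0.000248) and against preconditioning (−0.81 ± 0.22, adjusted p = 0.00873), while GFM1, a mitochondrial translocase, was called higher against FCCP (0.47 ± 0.17, adjusted p = 0.0448).

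The promoter matches printed above can be set beside the calls as a description. Of the 7 cytosolic genes with the core, 4 were called higher in preconditioning+FCCP against preconditioning (CARS1, GARS1, MARS1, NARS1) and 5 against FCCP (AARS1, CARS1, IARS1, MARS1, NARS1). Of the 9 cytosolic genes whose window lacked it, none was called higher and 1 lower against preconditioning (QARS1), and 1 was called higher against FCCP (EPRS1). YARS2, the mitochondrial gene with the core, was called in none of the 5 comparisons. Among all genes tested, 20.2% were called higher against preconditioning and 17.9% against FCCP. The share among all genes with the core was not computed. Called cytosolic genes without a window lie outside this split. They are YARS1 (higher) and VARS1 (lower) against preconditioning, and LARS1 (higher) against FCCP. Whether the core bears on the calls was not tested.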

How the data were processed

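Poly-A RNA was sequenced in 13 libraries, and groups were taken from the treatment in the labels. The authors deposited raw counts of reads for each gene, and the submitters' processing notes name HISAT2, HTSeq and the build hg19 with no version. No source used here gives the annotation release or the strand setting. Rows without a gene (5 per file) were dropped: 2.13% to 5.20% of reads lay outside genes, 11.0% to 12.4% over several genes, and 3.16% to 11.5% aligned to several places, so overlapping or duplicated genes are less certain.

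Genes kept by the default filter of edgeR (version 4.0.16, R 4.3.3) were TMM-scaled and fitted together over the 13 libraries, with the group as the only term, by the quasi-likelihood method of edgeR. Benjamini-Hochberg adjustment ran over the 16756 genes, every adjusted p in the text comes from this test, and those under 0.05 were called. The SE was computed as the size of the log2 change over the root of F, and CPM uses TMM-scaled library sizes. The functions were tested on simulated data. All pairs of libraries of a group differed by more than sampling noise (lowest chi-square per degree of freedom 3.12).

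The alternatives tried were size factors from DESeq2, library totals alone, no filter, DESeq2 (1.42.0), limma-voom (limma 3.58.1), the compared groups alone, a replicate block, the library set as a term, the mitochondrial genome left out, the joint removal of control 3, FCCP 1 and preconditioning+FCCP 3, and each library left out in turn. Fits within each library set were added after the data were seen.

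The members, the pathway lists, the marker lists, the motif and the tests were chosen with earlier results of these data known. Values in every library are given for the called members with the smallest adjusted p, up to 4 per comparison and compartment, and for called genes that serve both compartments or have no partner; AARS2 and other genes outside this rule were chosen after their values were seen. Up to 4 called genes are named per pathway list. Exon lengths and overlaps are from GENCODE 29; promoter sequences are from RefSeq (GRCh38.p14), and no coordinates of the hg19 files were used.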

Additional observations from a re-analysis of the deposited data

Results flagged for a closer look

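The FCCP effect differed with preconditioning, by the edgeR test of the interaction over all genes, in 4 members. The FCCP effect with preconditioning minus that without it was 1.60 for CARS1, 1.26 for MARS1, 1.15 for NARS1 and −0.70 for IARS2 on the log2 scale.

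Single libraries lay far from the others of the preconditioning group in 3 of the 35 members, where chance gives about 1 in 20; groups of 3 libraries cannot be judged in this way. FARSB, the beta subunit of the cytosolic phenylalanine enzyme, was 77.6 CPM in preconditioning 4, against 86.7 to 88.2 CPM in the other preconditioning libraries. GARS1 was 208 CPM in preconditioning 3, against 233.9 to 235 CPM in the others. NARS2, the mitochondrial asparagine enzyme, was 19.9 CPM in preconditioning 4, against 17.1 to 17.2 CPM in the others.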

How the results depend on the processing

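The numbers of members called were 1 for FCCP against control, 3 for preconditioning against control, 11 for preconditioning+FCCP against FCCP, 13 for preconditioning+FCCP against preconditioning and 4 for the interaction. For FCCP against control the count was 0 with library totals alone, limma-voom, the compared groups alone, the library set as a term and the higher-share set alone, 2 without the filter and with DESeq2, and 10 without control 3, FCCP 1 and preconditioning+FCCP 3 together; 5 members had an unadjusted edgeR p under 0.05. For preconditioning against control it was 5 with the compared groups alone, 0 with a term for the library set (6 members with an unadjusted p under 0.05 in the main test), 19 without the 3 libraries and 11 in the lower-share set alone, which has 1 control. For preconditioning+FCCP against FCCP it was 2 with the compared groups alone, 4 with a term for the library set, 23 without the 3 libraries and 0 in the higher-share set alone, which has 1 combined library. The interaction count was 14 without the 3 libraries. Leaving out each library in turn gave 0 to 4, 1 to 11, 3 to 17, 6 to 14 and 1 to 12 calls in the order above. Preconditioning against control reversed for FARSA (0.47 without the 3 libraries, and −0.34 to 0.47 with each library left out), YARS1 (0.37 without the 3 libraries) and the sparse VARS2 (3.23 without the 3 libraries, and −0.85 to 3.23 with each library left out). The cause of these shifts was not tested. Beside the counts above, the share of all genes called is not given, so a change in count may not be particular to the synthetases.

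Same-numbered libraries were correlated in their deviations from the group means in 18 pairs. The r ran from −0.20 to 0.16, with 1 pair over 0.1. With so few libraries per group this cannot show whether they share more than a number, which the labels do not say. With a replicate block the counts were 0, 2, 7, 7 and 1 in the order above. Of 4127 values of single genes under the alternatives, 3625 kept their direction and side of the threshold or stayed within the spread, 132 gained and 171 lost a call, 5 reversed and 194 moved by more than the spread. Library totals alone raised the median over all genes by 0.12 for preconditioning against control and by 0.18 for preconditioning+FCCP against FCCP; the share of calls that were higher became 58.0%, 55.2% and 64.1% for FCCP against control and these comparisons, instead of 45.4%, 44.7% and 50.3%. At 14970803 to 20636229 counts per library, SARS2 and VARS2 were too sparse for their sizes to be firm.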
